A study of Mus musculus with 37 samples.

Results

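The 9 genes described here encode scavenger receptors and other proteins by which resident macrophages of tissues are recognised. They were taken by symbol from a table of 23947 genes measured in 37 single cells, and all 9 were present. The receptors are Mrc1 (CD206, a lectin that takes up mannose-bearing glycoproteins), Stab1 (stabilin-1, which clears modified lipoproteins and extracellular debris), Cd163 (the receptor for haptoglobin-haemoglobin complexes), Msr1 (scavenger receptor A), Folr2 (folate receptor beta) and Lyve1 (a hyaluronan receptor). The other members are Fcna (ficolin A, a secreted lectin that starts complement), Cbr2 (a carbonyl reductase) and F13a1 (the catalytic subunit of the transglutaminase factor XIII).

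Scavenger receptors bind ligands as varied as oxidised lipoproteins, glycoproteins and haemoglobin, and deliver them to lysosomes. In many tissues, adipose tissue included, macrophages that carry LYVE1, CD163 and FOLR2 lie along blood vessels and differ from macrophages that come from recently arrived monocytes. In obese adipose tissue a further population, marked by CD9 and TREM2, stores and breaks down lipid.

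All 37 cells were labelled as adipose tissue macrophages, sorted from epididymal fat of male, age-matched C57BL/6J mice. The mice were fed a diet with 60% of its energy from fat, 20% from carbohydrate and 20% from protein. A digestion of 30 min is recorded for every cell. There was no lean or untreated group, no genetic change was given, and neither ages, diet duration nor sort gate is given in the sources used here. No animal was named for any cell, so the cells formed 1 group that counted as 1 sample, and no p-value was computed. The cells carry the numbers 0 to 36 of their labels.

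Expression is given as FPKM, in which fragments are divided by transcript length and library size, so levels may be set side by side between genes. Detection means at least 1 FPKM in a cell, and a gene counts as measured if 5 cells or more detect it. The cells had 1224 to 3204 detected genes, with a median of 1824. All 15 genes of the macrophage list, among them Cd68, Csf1r and C1qa, were detected in at least 19 cells, and each cell held at least 10 of them. Of the lists for other cell types, only that for fibroblasts and progenitors had 3 or more genes in a cell, in cells 7 and 27. The lists for lymphatic endothelium, platelets, dendritic cells, adipocytes and lymphocytes each had fewer than 3 genes detected in any cell. They could therefore not reach that number. These 2 cells held 11 and 12 genes of the macrophage list. Their summed FPKM for that list was 337 and 153, against a median of 17458.8 over the cells. The number of macrophage genes at 1 FPKM thus did not by itself separate them from the other cells. In those cells Mrc1 stood at 2.00 and 1.26 FPKM, Folr2 at 0 and 2.62 FPKM and Cbr2 at 0 and 1.41 FPKM. The other members were below 1 FPKM in both. The low values gave an estimate of what 1 fragment was worth in each cell. In 6 cells (2, 11, 15, 17, 24 and 26), called shallow here, this was over 4 times the median.

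RefSeq promoter windows, from 250 bases before to 50 after a transcription start, matched 7 of the 9 members with 9 windows on the mouse build GRCm38.p6. Lyve1 and Msr1 had no entry. The 5 windows below are of Mrc1 and Stab1 (Spearman rank correlation 0.50 over cells) and of Cbr2 with F13a1 (0.51) and Fcna (0.41). The windows of Folr2, which had 0.44 with Stab1, of Cd163 and the other one of F13a1 are not shown. All 5 windows shown hold the PU.1 letters described below, whereas those of Folr2 and Cd163 do not. Whether shared letters go with levels that vary together was not tested. Each is given 5′ to 3′ on the gene's strand. Capitals mark the letters of 3 motifs on either strand, namely TGCTGA (a half-site of Maf factors), GAGGAA (a core of PU.1 sites) and TGANTCA (AP-1). Matches of different motifs were allowed to overlap.
Mrc1, chr2:14229164-14229463, + strand: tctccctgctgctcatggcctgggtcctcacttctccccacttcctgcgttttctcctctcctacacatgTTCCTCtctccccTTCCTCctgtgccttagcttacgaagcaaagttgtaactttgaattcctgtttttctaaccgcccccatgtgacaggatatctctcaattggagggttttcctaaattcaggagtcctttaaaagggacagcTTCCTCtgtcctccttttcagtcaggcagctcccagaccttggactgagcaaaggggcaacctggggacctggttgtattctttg
Stab1, chr14:31168592-31168891, - strand: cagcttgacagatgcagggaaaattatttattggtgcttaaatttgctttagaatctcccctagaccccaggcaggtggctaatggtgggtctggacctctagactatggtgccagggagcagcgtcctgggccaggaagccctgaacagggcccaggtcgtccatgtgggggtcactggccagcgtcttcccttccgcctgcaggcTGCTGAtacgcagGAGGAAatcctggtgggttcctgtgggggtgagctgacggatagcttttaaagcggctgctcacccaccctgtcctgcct
Cbr2, chr11:120731972-120732271, - strand: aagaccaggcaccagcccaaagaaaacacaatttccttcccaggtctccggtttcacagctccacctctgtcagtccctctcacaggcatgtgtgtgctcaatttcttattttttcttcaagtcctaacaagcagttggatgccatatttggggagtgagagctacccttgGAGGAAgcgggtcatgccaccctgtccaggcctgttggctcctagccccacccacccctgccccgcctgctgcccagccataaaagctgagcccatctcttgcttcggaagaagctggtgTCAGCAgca
F13a1, chr13:37049164-37049463, - strand: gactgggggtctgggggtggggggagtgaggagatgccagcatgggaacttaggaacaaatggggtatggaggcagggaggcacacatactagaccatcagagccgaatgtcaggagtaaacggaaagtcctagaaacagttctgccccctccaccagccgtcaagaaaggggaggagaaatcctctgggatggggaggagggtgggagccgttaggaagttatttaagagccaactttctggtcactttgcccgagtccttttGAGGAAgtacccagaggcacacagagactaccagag
Fcna, chr2:25627925-25628224, - strand: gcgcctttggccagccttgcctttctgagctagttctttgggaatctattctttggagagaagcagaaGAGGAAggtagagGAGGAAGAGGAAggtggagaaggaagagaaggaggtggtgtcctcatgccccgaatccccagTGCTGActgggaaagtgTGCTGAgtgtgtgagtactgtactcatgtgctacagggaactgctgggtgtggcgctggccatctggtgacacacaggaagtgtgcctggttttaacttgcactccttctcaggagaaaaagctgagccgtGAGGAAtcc

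Maf factors and PU.1 are transcription factors of macrophages. The PU.1 letters occurred in 6 of the 9 windows, those of Mrc1, Stab1, Cbr2, F13a1 (both) and Fcna, against 28.3% of all 32851 promoter windows. Mrc1 held 3 matches and Fcna 4, of which 2 in Fcna lie end to end. The Maf letters occurred in 5 of the 9 windows, those of Stab1, Folr2 (both), Cbr2 and Fcna, against 19.5% of all windows. Fcna held 2 Maf matches. The AP-1 letters occurred in 1 window, a Folr2 start, against 7.81% of all windows. Cd163 held none of the 3. These matches describe letters only, and no binding was measured in these cells.

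Mrc1 was the most widely detected member and Lyve1 the least. At 1 FPKM, 2 of the 9 members, Mrc1 and Folr2, were detected in at least 19 cells, where 4.03% of all genes in the table were. In at least 10 cells, 5 of the 9 were detected, against 9.97% of all genes. In at least 5 cells, 8 of the 9 were detected, the exception being Lyve1, against 19.6% of all genes. The shares ran from 91.9% of cells for Mrc1 through 64.9% for Folr2, 45.9% for Stab1, 43.2% for F13a1 and 40.5% for Cbr2 to 24.3% for Msr1, 16.2% for Cd163, 13.5% for Fcna and 8.11% for Lyve1. The bar chart of these shares shows how far each depends on the threshold.

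**Figure D1:**
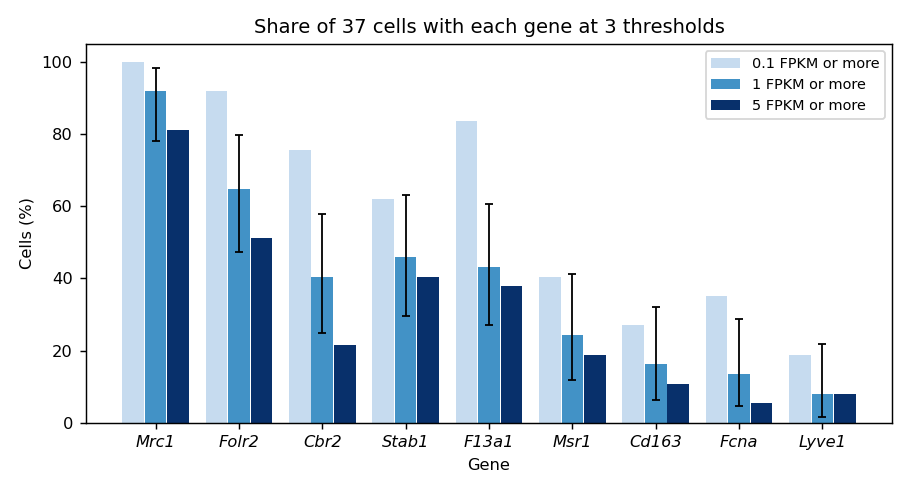
Share of the 37 cells (%, vertical axis) with each gene at 0.1, 1 or 5 FPKM or more, with exact Clopper-Pearson 95% intervals on the 1 FPKM bars, which cover the sampling of cells only. Mrc1 was at 1 FPKM or more in 34 cells and at 5 FPKM or more in 30, whereas F13a1 went from 31 cells at 0.1 FPKM to 16 at 1 FPKM.

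Among the endocytic receptors, Mrc1 ranged from 0.527 to 1506 FPKM with a median of 76.0 FPKM, and the quartiles were 24.1 and 353 FPKM. It was highest in cell 2, at 1506 FPKM, followed by cell 8 at 787 FPKM and cell 31 at 589 FPKM. The FPKM of cell 2 summed to 1115910, against a median of 326230. After each cell was rescaled to the same sum, Mrc1 was highest in cell 8 and cell 2 was at rank 6. Mrc1 was detected in 34 cells (91.9%, interval 78.1 to 98.3%) and was listed at 0 in none. The levels formed a broad range with no cell at exactly 0. However, 29 cells were above 3% of the mean, and the rest were low. The low cells included the fibroblast-gene cells 7 and 27, at 2.00 and 1.26 FPKM. Lower still were cells 35 (0.527 FPKM), 4 (0.589) and 13 (0.640), which held 13, 13 and 14 genes of the macrophage list. None of these held a gene of the fibroblast list at 1 FPKM. Folr2 in them was at 0.326, 788 and 263 FPKM.

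Folr2 was distributed differently. Its median was 14.96 FPKM, but the lower quartile was 0.448 and the upper quartile 271 FPKM. Without the 6 shallow cells the median was 4.11 FPKM. The highest values were 1564 FPKM in cell 16, 817 in cell 34 and 788 in cell 4. In cell 16 Folr2 was the 20th most abundant of 2352 detected genes. It was detected in 24 cells (64.9%, interval 47.5 to 79.8%), of which 19 were at 5 FPKM or more. Mrc1 exceeded Folr2 in 25 cells and fell below it in 12, so the order of these neighbours differed between cells.

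Stab1 was detected in 17 cells (45.9%, interval 29.5 to 63.1%) with a median of 0.656 FPKM over all 37 and of 0.249 FPKM without the shallow cells. Its values reached 141 FPKM in cell 11, 81.6 in cell 14 and 67.6 in cell 30. It was listed at 0 in 5 cells, and in this kind of table an exact 0 can be a failed estimate. The share with Stab1 was 62.2% at 0.1 FPKM, so whether most cells held it depended on the threshold. After rescaling to the same sum the share was 51.4%, but rescaling raised the values of most cells and so also loosened the threshold.

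Msr1, the class A scavenger receptor, was detected in 9 cells (24.3%, interval 11.8 to 41.2%) with a median of 0.0423 FPKM. Cell 8 held 308 FPKM, 59.5% of the sum over all cells, followed by cell 5 at 86.6 and cell 28 at 65.4 FPKM. Of these 3 cells, cell 8 alone was also among the 3 highest for Mrc1.

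Cd163 was detected in 6 cells (16.2%, interval 6.19 to 32.01%) and its median was 0.0237 FPKM. It reached 59.9 FPKM in cell 29, 49.0 in cell 34 and 12.04 in cell 19. These 3 cells held 89.9% of all Cd163 signal. Cell 34 had Folr2 at 817 FPKM as well, but no Fcna, Lyve1 or Cbr2 at 1 FPKM.

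Lyve1 was detected in 3 cells (8.11%, interval 1.70 to 21.9%) and had a median of 0. Its values were 293 FPKM in cell 29, 53.9 in cell 17 and 12.4 in cell 8. The next cells were all below 1 FPKM, and 25 cells were listed at 0. Lyve1 is also a marker of lymphatic endothelium, of which these 3 cells held none of the 6 listed genes at 1 FPKM.

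Of the members that are not endocytic receptors, F13a1 was detected in 16 cells (43.2%, interval 27.1 to 60.5%). Its median was 0.535 FPKM and its lowest value 0.0315 FPKM, so that it was listed at 0 in no cell. It reached 589 FPKM in cell 15, 299 in cell 17 and 278 in cell 31, and after rescaling to the same sum was highest in cell 31. Platelets and their precursors carry F13a1 too, and no cell held more than 1 of the 6 platelet and megakaryocyte genes.

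Cbr2 was detected in 15 cells (40.5%, interval 24.8 to 57.9%), but at 5 FPKM or more in 8. The median was 0.690 FPKM. Cell 29 reached 2338 FPKM and cell 8 reached 1144 FPKM, with cell 13 next at 230 FPKM. The 3 cells held 96.9% of all Cbr2 signal. Cbr2 in cell 29 was the 17th most abundant of 1710 detected genes.

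Fcna was concentrated most of all. Cell 29 held 1056 FPKM, 98.2% of the sum over the 37 cells, and the next were cell 26 at 5.15 and cell 2 at 4.84 FPKM. It was detected in 5 cells (13.5%, interval 4.54 to 28.8%) and listed at 0 in 24. Of the 5 cells, 3 (2, 17 and 26) were shallow, and Fcna had a rank correlation of 0.45 with the value of 1 fragment. The part of depth in these low Fcna values was not tested.

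In the order of medians, Mrc1 was followed by Folr2, Cbr2, Stab1, F13a1, Msr1, Cd163 and, both at 0, Fcna and Lyve1. Several neighbours could not be separated cell by cell. Cbr2 was above Stab1 in 19 cells and below it in 16, and Stab1 was above F13a1 in 14 cells and below it in 23. Msr1 was above Cd163 in 17 cells and below it in 14. The steps from Folr2 to Cbr2, higher in 27 cells and lower in 8, and from F13a1 to Msr1, higher in 28 and lower in 9, were the clearest. The plot of levels by cell shows these distributions.

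**Figure D2:**
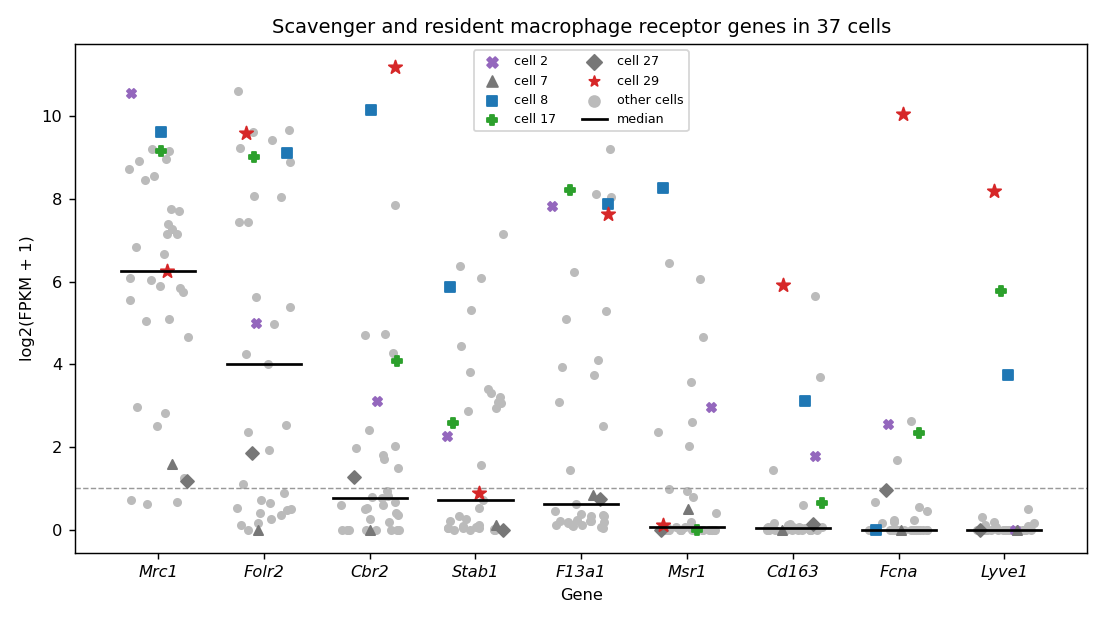
Level of each gene as log2(FPKM + 1) (vertical axis) in each of the 37 cells (points), with the median as a bar and the detection threshold of 1 FPKM as a dashed line. Cell 29 is highest for Cbr2, Cd163, Fcna and Lyve1, cell 8 for Msr1 and cell 2 for Mrc1 (cell 8 once each cell is rescaled to the same sum). The fibroblast-gene cells 7 and 27 lie at 2.62 FPKM or less for each gene.

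The number of members detected in a cell ran from 0 to 8, with a median of 3. Cell 35 had none, 7 cells had 1, and 19 cells had 3 or 4. Cells 2 and 8 had 8 members, cells 17 and 29 had 7, and cell 33 had 6. Together the members made up between 0.000436% and 1.47% of the summed FPKM of a cell, with a median of 0.137%. Cell 29, at 1.47%, and cell 8, at 1.05%, were highest. The number of members detected had a rank correlation of 0.14 with the summed FPKM of a cell and of 0.50 with the value of 1 fragment. Cells 2 and 17 were shallow, whereas cells 8 and 29 were not. The part of depth in the number of members was not tested.

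**Figure D3:**
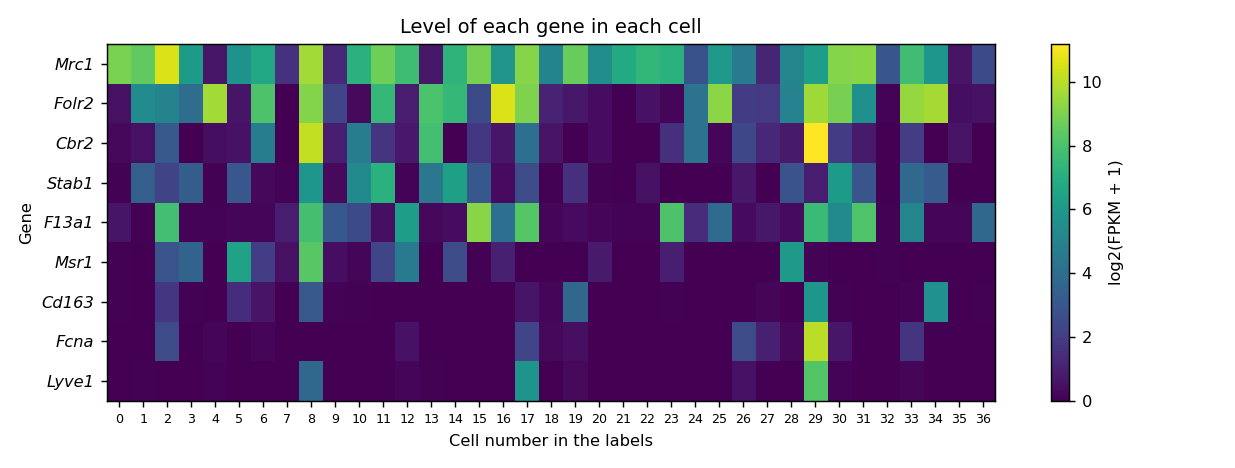
Level of each gene (rows) in each cell (columns, by cell number) as log2(FPKM + 1) on the colour scale. Mrc1 is above 1 FPKM across most columns, Lyve1 in columns 8, 17 and 29 alone, and cells 8 and 29 both hold high Cbr2, Folr2 and F13a1 but differ in Msr1, Stab1 and Fcna.

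Cell 29 was the cell in which Lyve1 (293 FPKM), Cd163 (59.9), Fcna (1056) and Cbr2 (2338) were all at their highest. Folr2 stood at 771 FPKM and F13a1 at 199 FPKM there. Mrc1, at 76.0 FPKM, was exactly the median cell, and Stab1 and Msr1 were below 1 FPKM. Other genes of resident macrophages were high in the same cell. Gas6 (a ligand of TAM receptors, 426 FPKM), Igf1 (a growth factor, 502 FPKM) and Ltc4s (leukotriene C4 synthase, 1823 FPKM) were at their highest of the 37 cells. Retnla, which macrophages secrete on alternative activation, was at rank 2 with 21485 FPKM and the chemokine Pf4 at rank 3 with 3626 FPKM. The lipid-associated genes Cd9 (1.47 FPKM, rank 25), Plin2 (1.43 FPKM, rank 36) and Fabp4 (1.48 FPKM, rank 32) were low there.

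Cell 8 had another combination. Msr1 was at its highest, at 308 FPKM, with Mrc1 at 787 and Cbr2 at 1144 FPKM both at rank 2 and Lyve1 at 12.4 FPKM at rank 3. Folr2 stood at 556, F13a1 at 235 and Stab1 at 57.9 FPKM, while Fcna was listed at 0. The lectins Cd209f (475 FPKM) and Cd209d (286 FPKM) were at their highest in this cell, although genes of the Cd209 family are similar and can share reads. Hmox1, the haem-degrading enzyme, was second highest at 645 FPKM, and the chemokine Ccl8 reached 431 FPKM. Tfrc, the transferrin receptor, was at its highest at 81.6 FPKM.

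Cells 17 and 2 shared some of these features. Cell 17 combined Lyve1 at 53.9 FPKM with F13a1 at 299, Mrc1 at 574 and Ccl8 at 2153 FPKM, and held the highest C4b (complement C4, 350 FPKM). It also held the highest value of the fibroblast gene Dpt, at 604 FPKM, although fewer than 3 genes of that list. Cell 2, with the highest Mrc1 in FPKM, also had the highest Pf4 (25433 FPKM), Emr1 (the F4/80 antigen, 1470 FPKM) and Trem2 (a lipid receptor, 5403 FPKM). After rescaling to the same sum, cell 2 stayed at rank 1 for Pf4 and Trem2 but was at rank 5 for Emr1 and rank 6 for Mrc1. Lyve1 was listed at 0 in it.

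Over the 37 cells the members varied together weakly to moderately. Of the 28 pairs of the 8 measured members, 26 had a Spearman rho above 0, against 56.5% of all pairs of measured genes. A rho of 0.3 or more was found for 7 pairs (25%), against 5.96% of all pairs. The mean rho was 0.22 for the members and 0.03 for all measured pairs. The members were chosen with earlier results of these data known. The measured genes were not matched to them for detection, so the contrast is a description only. These correlations describe 37 cells of 1 sample, which share their processing and differ in depth.

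Mrc1 and Stab1 had a rho of 0.50 and were detected together in 16 cells, where the product of their shares gives 15.6. Mrc1 and F13a1 had a rho of 0.46, and Stab1 and Folr2 of 0.44. Mrc1 and Folr2, the most widely detected members, had a rho of 0.21. Both were found in 22 cells, where the product gives 22.1.

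Cbr2 and F13a1 had the highest rho of the measured pairs, 0.51, and 10 cells held both, where the product of shares gives 6.49. Without cells 8 and 29 the rho was 0.45, and the Pearson r on log2(FPKM + 1) went from 0.41 to 0.18. Fcna and Cbr2 had a rho of 0.41, and all 5 cells with Fcna also had Cbr2. Their Pearson r was 0.58, and 0.30 without cells 8 and 29. Cd163 and Fcna had a rho of 0.37, with a Pearson r of 0.56 and, without these cells, of 0.10. Cd163 and Cbr2 had a rho of 0.16, and of 0.02 without these cells, with a Pearson r of 0.44 and of -0.11. The linear relations among Fcna, Cbr2 and Cd163 were thus weaker without cells 8 and 29, as was the rank relation of Cd163 with Cbr2. Fcna was listed at 0 in cell 8, and cell 29 held 98.2% of its sum. Cell 29 was not left out alone.

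Msr1 stood apart from Folr2 (rho -0.02) and Fcna (rho -0.10), the pairs below 0. Its highest rho with another member was 0.24, with Stab1. Lyve1, which was not measured in enough cells to enter the count, had a rho of 0.56 with Fcna, 2 cells holding both. Their Pearson r was 0.80, and 0.03 without the 2 cells farthest from the Lyve1 median.

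The relations were also computed within cells 0 to 19 and within cells 20 to 36, a putative split of libraries that the labels do not give. Within these parts Mrc1 and Stab1 had a rho of 0.29 and 0.63. Mrc1 and F13a1 had 0.52 and 0.43, Cbr2 and F13a1 had 0.44 and 0.60, and Stab1 and Folr2 had 0.22 and 0.58. Fcna and Cbr2 had 0.12 and 0.71. Stab1 and Fcna, at 0.04 over all cells, had -0.44 in the first part and 0.43 in the second.

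**Figure D4:**
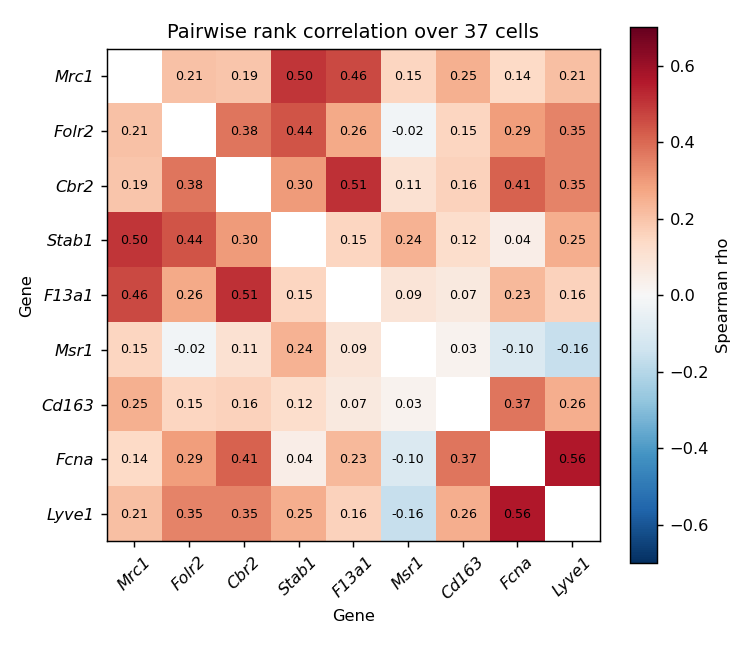
Spearman rho over 37 cells for each pair of genes (both axes), as colour and number. Among the measured members the rank correlation is highest for Cbr2 with F13a1 (0.51) and Mrc1 with Stab1 (0.50). The value for Lyve1 with Fcna (0.56) is higher, but Lyve1 was detected in 3 cells and the 2 genes had equal values in 20. The correlation is near or below 0 for Msr1 with Folr2, Fcna and Lyve1.

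Genes with a pattern like a member's were ranked by Spearman rho over the 37 cells, among genes detected in at least 10 cells. Many of the genes named below had medians under 1 FPKM, so their rho also ranks values below detection. Among the highest for Mrc1 were Plek (pleckstrin, rho 0.63), Ctsc (the lysosomal protease cathepsin C, 0.56), Emr1 (0.54) and Fcgr2b (the inhibitory Fc receptor, 0.54). A rho of 0.5 or more with Mrc1 was found for 8 of 2387 genes (0.335%). Among the lowest were Elovl1 (fatty acid elongation, -0.57) and Mrpl52 (a mitochondrial ribosomal protein, -0.55).

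For Stab1 the highest were Nt5dc2 (0.58, with a Pearson r of 0.04), Txndc15 (0.55), Rab11fip5 (an endosomal recycling factor, 0.55), Dclre1c (the DNA repair nuclease Artemis, 0.52) and Arl8b (a lysosomal GTPase, 0.52, with a Pearson r of 0.18). A rho of 0.5 was reached by 0.293% of genes. At the other end, Ccr2, the chemokine receptor of monocytes, had a rho of -0.58 with Stab1, and of -0.36 and -0.65 within the parts split by cell number. Sp110 (-0.58) and Dhrs7 (-0.54) were the other lowest. Ccr2 was detected in 13 cells, and its rho with Mrc1 was -0.11.

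For Folr2 the highest were Ninj1 (an adhesion and membrane rupture protein, 0.65), Pirb (an inhibitory receptor, 0.52), Hmox1 (0.49), Idh3g (of the citric acid cycle, 0.48) and Dok2 (a signalling adaptor, 0.46). Ninj1 kept 0.61 and 0.69 within the parts, and 0.0838% of genes reached 0.5. The ribosomal protein genes Rps3 (-0.53) and Rps25 (-0.47) and Emc2 (-0.47) were lowest.

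For Cbr2 the highest were Ppp1r12c (0.55, with a Pearson r of 0.11), Eif4h (a translation factor, 0.53, with a Pearson r of 0.29), Hmox1 (0.52), Bsg (basigin, 0.52) and Sh3pxd2b (0.51). A rho of 0.5 was reached by 0.293% of genes. Eef1a1, a translation elongation factor, was lowest at -0.59, with Vdac3 (-0.55) and Ufsp2 (-0.52, with a Pearson r of -0.18).

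For F13a1 the highest were Csrnp1 (0.60), Ly6e (0.59), Gda (guanine deaminase, 0.57), Klf6 (a transcription factor, 0.57, with a Pearson r of 0.34) and Rnf20 (a histone ubiquitin ligase, 0.52). A rho of 0.5 was reached by 0.419% of genes. Prkcd (a protein kinase C, -0.61), Sept2 (-0.52) and Rpl9 (-0.52) were lowest. Hmox1 was the one gene among the 5 highest for more than 1 member.

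Against the list of other resident macrophage genes, of which 13 were measured, every measured member had a median rho above 0. The lists, like the members, were chosen with earlier results of these data known. Mrc1 was above 0 with 11 of 13 (median 0.27), Cbr2 with 12 (0.26), Stab1 with 11 (0.24) and F13a1 with 12 (0.19). The backgrounds over all measured genes were 44.1% above 0 for Mrc1, 45.5% for Cbr2, 50.4% for Stab1 and 45.8% for F13a1. Folr2 was above 0 with 11 (median 0.16, background 50.8%), Fcna with 12 (0.14, 50.3%), Cd163 with 11 (0.09, 38.5%) and Msr1 with 8 (0.14, 52.3%). Gas6 had a rho of 0.54 with Mrc1 and 0.50 with Stab1. Ednrb, the endothelin B receptor, had 0.51 with Fcna, and Pf4 had 0.44 with Mrc1 and 0.41 with Folr2.

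On the list of CD9 lipid-associated genes, of which 13 were measured, the members lay on both sides of 0. Over all measured genes, the share above 0 ran from 38.5% for Cd163 to 52.3% for Msr1. The median rho over all measured genes ran from -0.05 for Cd163 to 0.01 for Msr1. It was 0.002 for Stab1 and -0.02 for Cbr2, so these 2 members departed little from it. Cd163 (median rho -0.24, 1 of 13 above 0), F13a1 (-0.22, 1 of 13), Fcna (-0.16, 3 of 13), Mrc1 (-0.16, 4 of 13) and Cbr2 (-0.10, 3 of 13) lay below 0. Msr1 (0.12, 10 of 13), Folr2 (0.11, 10 of 13) and Stab1 (0.04, 9 of 13) lay above it. Cd9 itself had a rho of -0.49 with F13a1, -0.42 with Mrc1 and -0.41 with Cd163, and of -0.04 with Folr2. Trem2 had a rho of -0.03 with Mrc1.

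MHC class II genes, which present peptides, gave a different order of the members. F13a1 (median 0.26) and Mrc1 (0.23) were above 0 with all 7, whereas Msr1 (-0.09) and Fcna (-0.06) were above 0 with 1. Between them, Stab1 was above 0 with 6, Cd163 and Folr2 with 5 and Cbr2 with 4. The backgrounds above 0 were 45.8% for F13a1, 44.1% for Mrc1, 52.3% for Msr1 and 50.3% for Fcna. They were 50.4% for Stab1, 38.5% for Cd163, 50.8% for Folr2 and 45.5% for Cbr2. The macrophage list itself had its highest medians with Mrc1 (0.22) and Stab1 (0.18), and C1qa had a rho of 0.52 with Mrc1.

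**Figure D5:**
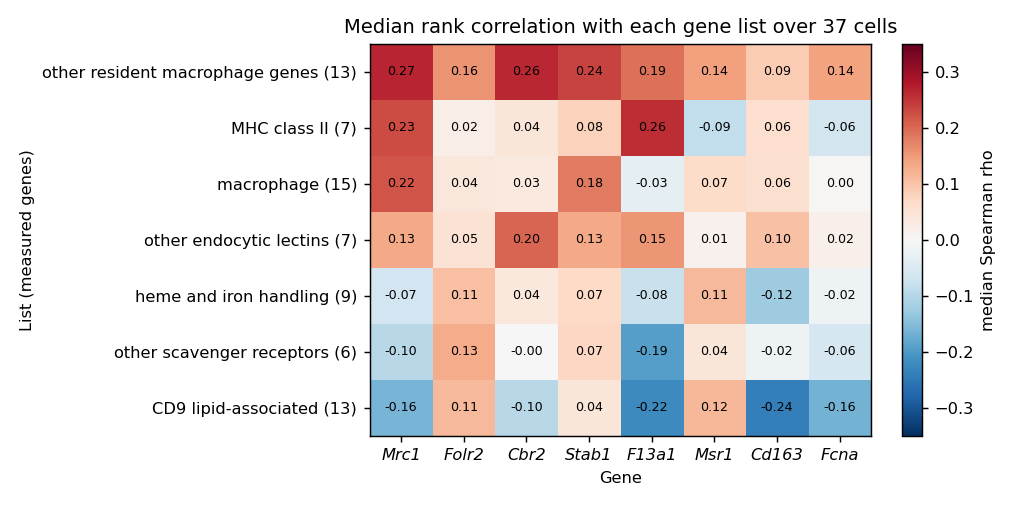
Median Spearman rho over 37 cells of each measured member (columns) with the measured genes of each list (rows, with their number). The row of other resident macrophage genes lies above 0 for all 8 members, and the CD9 lipid-associated row below 0 for Mrc1, Cbr2, F13a1, Cd163 and Fcna.

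Other genes of the members' pathways were detected unevenly. Of 16 other scavenger receptors, 6 were measured and 3 were detected in at least 19 cells, namely Cd36 (a fatty acid and lipoprotein receptor, 35 cells), Cd68 (35 cells) and Lrp1 (21 cells). Cxcl16 was detected in 17 cells. Marco and Olr1 were detected in none, and a count of 0 of 37 allows a share of up to 8.11%. Stab2, the paralog of Stab1, was detected in 1 cell.

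Of 16 other endocytic lectins, 7 were measured and 5 were detected in at least 19 cells. Clec10a and Mgl2, galactose-type lectins that are close paralogs and can share reads, were each detected in 25 cells. Clec4a2 was detected in 24 cells and Clec4a1 and Cd302 in 23 each. Mrc2, the paralog of Mrc1, was detected in 2 cells.

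Of 16 other resident macrophage genes, 13 were measured and 6 were detected in at least 19 cells. Sepp1 (selenoprotein P) and Retnla were detected in all 37 and Pf4 in 36. Retnla had a median of 8.01 FPKM, and 3 cells held 83.7% of its sum. Its values in the fibroblast-gene cells 7 and 27 were 6.53 and 39.1 FPKM. The transcription factor Maf was detected in 31 cells. Timd4, a phosphatidylserine receptor of resident macrophages in several tissues, was detected in no cell. Cd5l was detected in 1 cell, Vsig4 in 2 and Mertk in 5, beside 3 for Lyve1, 5 for Fcna and 6 for Cd163.

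Cd163 takes up haemoglobin, and of the haem and iron genes Fth1 and Ftl1, the ferritin chains, were detected in all 37 cells, Blvrb (biliverdin reductase B) in 28, Slc11a1 (an iron transporter of phagosomes) in 23 and Lrp1 in 21. Hmox1 was detected in 10 cells, and its rho with Cd163 was 0.05, with Folr2 0.49 and with Cbr2 0.52. The iron exporter Slc40a1 was detected in 2 cells.

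Of the hyaluronan genes beside Lyve1, Cd44, the main hyaluronan receptor of leukocytes, was detected in 35 of 37 cells, and no other gene of the list in more than 2. Of the folate genes beside Folr2, Ggh (a folate hydrolase) was detected in 10 cells and Folr1 in none. Of the lectin pathway genes beside Fcna, C4b was detected in 8 cells and C3 in 3, and Fcnb, Mbl1, Mbl2, Masp1 and Masp2 in none. Of the coagulation genes beside F13a1, Plaur (the urokinase receptor) was detected in 17 cells and F13b, the carrier subunit of factor XIII, in none. Of the carbonyl reductases beside Cbr2, Akr1b8 was detected in 15 cells, Cbr1 in 6 and Cbr3 in 5.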

How the data were processed

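FPKM for 23947 genes in 37 cells were deposited by the authors in 1 table. STAR, Cuffnorm and the mouse build mm9 are named per the submitters' processing notes. Neither tool versions nor the annotation is given in the sources used here. Fragment counts are not in the table, so depth is unknown. Relative depth was the value of 1 fragment, estimated from ratios of low values over 666 pairs of cells. The deposited FPKM were transformed here to log2(FPKM + 1), on which all ranks and Pearson correlations were computed (Python 3.11.15, pandas 2.3.3, scipy 1.17.1). The scripts were checked on simulated data. Intervals of shares are exact Clopper-Pearson 95% intervals over cells, and a count of 0 allows a share of 3 counts of the total. With 1 sample no test was made.

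All 9 members were named. For members detected in at least 10 cells the 5 genes of highest and 3 of lowest rho were named, among genes detected in at least 10 cells. From each pathway list up to 4 widely detected genes and its defining genes listed at 0 were named. Genes beyond this rule in the accounts of single cells and of list correlations were chosen after their values were seen. The 20 lists held 193 distinct genes, of which 191 were in the table. Symbols are those of the table (Emr1 is Adgre1, Sepp1 is Selenop). Some genes that the rule selects are not reported here. The members and lists were chosen with earlier results of these data known. Alternatives were other detection thresholds, pseudocounts, a rescaling of each cell to the same sum, and subsets of cells. The sum used for rescaling was above the summed FPKM of most cells.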

Additional observations from a re-analysis of the deposited data

How the results depend on the processing

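The number of members detected in at least 19 of 37 cells was 2, the same at 5 FPKM, without the 2 cells with fibroblast genes and without the 6 shallow cells. It was 5 with detection at 0.1 FPKM, 4 after each cell was rescaled to the same sum, and 3 with detection above 3% of a gene's mean. The mean pairwise rho of 0.22 was 0.14 within cells 0 to 19, 0.27 within cells 20 to 36 and 0.34 for the members detected in at least 10 cells. It was 0.17 without cells 8 and 29, an alternative chosen after seeing the data, as was setting values under 0.01 FPKM to 0, which gave 0.23. No paired analysis was possible because all cells belong to 1 group. The common sum of the rescaling lay above the summed FPKM of most cells, whose median was 326230. Rescaling thus raised the values of most cells by its unit alone, and loosened the threshold of 1 FPKM in them. The count of 4 members after rescaling is therefore also an effect of a looser threshold. Median levels rose for 6 of the 9 members after rescaling, which for the same reason is no check of the levels. The median of Folr2 fell, from 14.96 to 9.78. Without the shallow cells the median of F13a1 went from 0.535 to 0.305 FPKM. Of the 28 pairs, 24 kept their sign within cells 0 to 19 and 26 within cells 20 to 36. For each member detected in at least 10 cells, the 5 most like genes were followed among the 50 highest. By Pearson r with a pseudocount of 1, 3 to 5 of them stayed there, depending on the member. Within cells 0 to 19, 2 to 4 stayed, as within cells 20 to 36. After rescaling and without the shallow cells, all 5 stayed for each member. With 37 cells, no counts and no named animals, differences between animals cannot be told apart from differences between cells.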
